A study of Homo sapiens with 6 samples.

Results

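The genes of 8 trophic receptors were followed in neuroblastoma cells depleted of the long noncoding RNA (lncRNA) CyCoNP. They were the neurotrophin receptors NTRK2, NTRK3 and NGFR, the receptor of the glial cell line-derived neurotrophic factor (GDNF) family RET with its co-receptors GFRA1, GFRA2 and GFRA3, and the receptor ALK. The genes were chosen by name, as receptors whose levels are used to describe neuroblastoma differentiation, and all 8 were found among the 60676 genes of the expression tables. RNA was measured in SK-N-BE, an established human neuroblastoma line, after 1.5 days in differentiation medium with 10 μM retinoic acid, a vitamin A derivative that drives these cells towards a neuronal state. Cells of 3 libraries had been transfected with a scrambled small interfering RNA (si-SCR) and cells of 3 libraries with a pool of siRNAs directed at the second exon of CyCoNP (si-CyCoNP). Both groups therefore shared the transfection and the retinoic acid, and no library came from untransfected or undifferentiated cells.

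Neurotrophins are secreted survival factors that act through TrkB and TrkC (the products of NTRK2 and NTRK3), receptor tyrosine kinases that phosphorylate themselves when bound, and through p75NTR (the product of NGFR), which has no kinase and a death domain in its intracellular part. Factors of the GDNF family bind a GFRA protein held to the cell surface by a lipid anchor, and this pair then activates the kinase RET. ALK is a receptor kinase of the developing nervous system whose activating mutations drive a share of neuroblastomas, and its close relative LTK binds the same ligands.

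The libraries held 3762009 to 4799407 counted fragments and 19519 to 20520 genes with a count. Libraries of one group correlated with r between 0.984 and 0.987 across genes. In counts, si-SCR replicate 3 stood further from its group. Its chi-squared per degree of freedom was 5.69 against si-SCR replicate 1 and 4.34 against si-SCR replicate 2. The other pairs of a group had 2.56 to 2.80. LINC02381, the gene of CyCoNP, was counted 274, 208 and 315 times after the scrambled siRNA and 20, 30 and 12 times after the CyCoNP siRNAs, and its level fell by 3.78 on the log2 scale (SE 0.190, edgeR quasi-likelihood test, adjusted p = 6.84e-14). All 11 genes of a list of adrenergic neuroblastoma markers passed the expression filter, among them the catecholamine enzyme genes TH and DBH at 47.5 and 393 FPKM (fragments per kilobase of gene, scaled to the library total) and the granin gene CHGA at 575 FPKM in si-SCR. The labels do not say whether the libraries came from separate cultures, so that p-values measure the spread between these samples, which may be technical.

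The study asked about pairing of CyCoNP and of messenger RNAs with the microRNA hsa-miR-4492, and the sequences that such pairing would involve in the receptor messages are given first. The mature sequence is shown with its seed (bases 2 to 8) in capitals, as RefSeq gives it for GRCh38.p14 at chr11:118910765-118910781 on the plus strand.
hsa-miR-4492: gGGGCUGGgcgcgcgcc
The 7 bases complementary to this seed, CCAGCCC, were searched on the sense strand in the 3′ untranslated region (3′UTR) of the canonical transcript of each gene. NGFR held 3 matches in 1999 bases, NTRK3 held 2 in 17184 bases and GFRA1 held 1 in 7473 bases. No match lay in the 3′UTRs of RET (2082 bases), GFRA2 (2880 bases), NTRK2 (5617 bases), GFRA3 (588 bases) or ALK (450 bases). The matches stand below in capitals with their neighbouring bases, so that the letters searched can be seen in place, and positions count from the first base after the stop codon.
NGFR, bases 304 to 310: gctaggtgggCCAGCCCctcccaccac
NGFR, bases 1584 to 1590: ccaccgctccCCAGCCCagggttcccc
NGFR, bases 1600 to 1606: cagggttcccCCAGCCCtgtggaaggg
NTRK3, bases 1290 to 1296: cctcacgtttCCAGCCCctgggaggat
NTRK3, bases 9742 to 9748: cagtatctttCCAGCCCcctggaccaa
GFRA1, bases 4757 to 4763: gttctgagacCCAGCCCagaggggtgg
A match of these letters is a description and not a site in use. Of 10488 tested genes with a canonical 3′UTR, 23.4% held at least 1 match, and the share was 27.0% among 378 genes called lower in si-CyCoNP and 23.2% among the other 10110. The 3′UTRs of the genes called lower were also longer, with a median of 1564 bases against 1388, and this difference in length was not taken out of the shares.

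Of the 8 receptors, 4 reached a mean of 1 FPKM in at least 1 group, which was the filter for testing, and 3 of these 4 differed between the groups. RET and GFRA2 fell and NGFR rose, while ALK did not pass the test. Where a call needed a log2 fold change past 1 in size together with an adjusted p under 0.05, GFRA2 was called lower and NGFR higher, against 2.98% and 2.28% of the 13966 tested genes called lower and higher. At the adjusted p alone, 2 of the 4 tested receptors fell and 1 rose, where 14.2% of all tested genes fell and 14.2% rose. The FPKM of the groups did not overlap for 3 of the 4, and for 40.3% of all tested genes. The median log2 fold change was -0.30 over the 4 tested receptors and 0.01 over all tested genes. NTRK2, NTRK3, GFRA1 and GFRA3 were not tested for lack of counts, so these shares describe the 4 receptors with a measurable level. In bulk RNA, fewer cells of a type and less RNA per cell cannot be told apart.

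**Figure D1:**
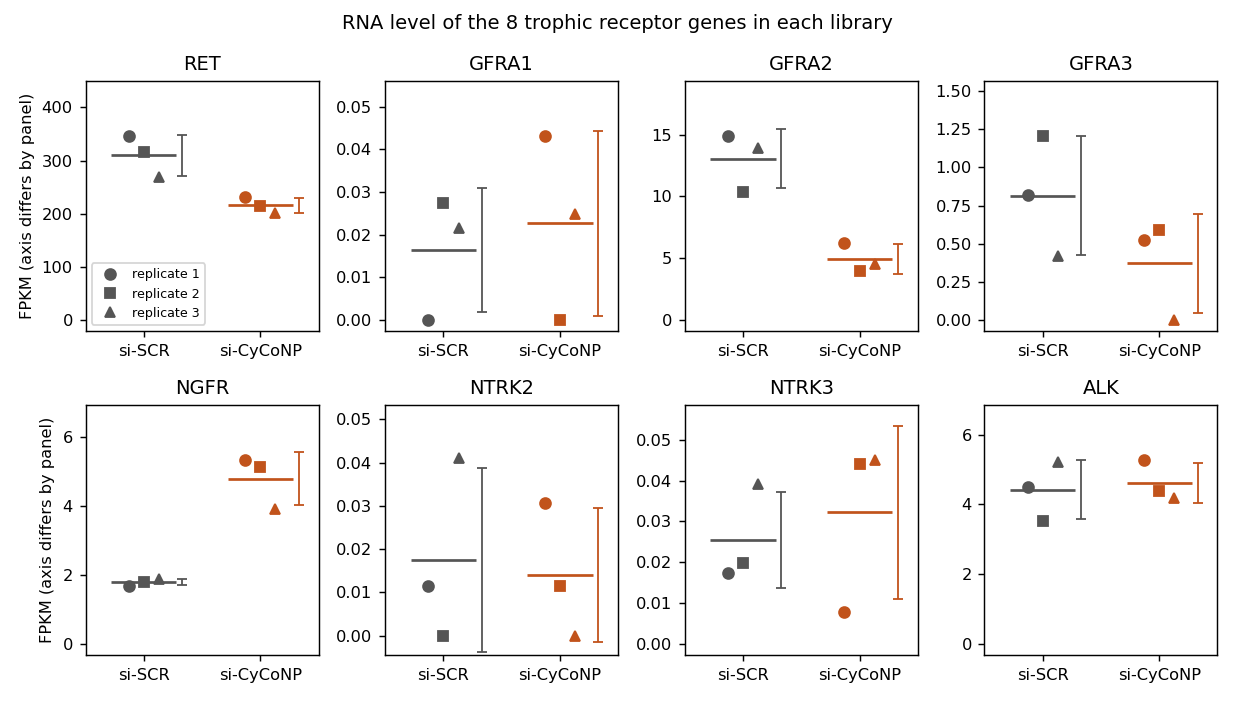
Level of each receptor gene in FPKM in the 3 si-SCR (grey) and 3 si-CyCoNP (orange) libraries, with the replicate number as the symbol, the mean as a horizontal line and 1 SD as the bar beside it, on a linear axis that differs between panels. RET and GFRA2 are lower and NGFR higher in every si-CyCoNP library, the ALK values overlap, and the other 4 panels stay near or under 1 FPKM.

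RET (ENSG00000165731, GRCh38 chr10:43077064-43130351, plus strand, the build of all gene positions here), the signalling kinase of the GDNF family, was by far the most abundant of the 8. It had 345.7, 315.2 and 268.4 FPKM in the si-SCR libraries, from 10206, 8152 and 8823 counts. In the si-CyCoNP libraries it had 230.5, 215.0 and 201.4 FPKM, from 7606, 6281 and 5741 counts. Every si-CyCoNP library lay under every si-SCR library. The mean went from 310 ± 39.0 to 216 ± 14.6 FPKM (SD, n = 3), and RET fell by 0.59 on the log2 scale, a level 1.51-fold lower (SE 0.088, edgeR quasi-likelihood test, adjusted p = 7.23e-06). The change did not reach the fold used for a call in the reported fit or in any of the 14 alternative settings, which gave log2 fold changes between -0.70 and -0.49. RET ranked 70, 86 and 112 among all genes by FPKM in the si-SCR libraries and 118, 133 and 155 in the si-CyCoNP libraries.

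Among 54 genes of receptor tyrosine kinases, which include NTRK2, NTRK3 and ALK, RET stood first in 6 of 6 libraries. The next was DDR2, a collagen receptor, at 32.5 and 31.8 FPKM. RET held 65.7%, 64.4% and 61.1% of the summed FPKM of the 54 genes in the si-SCR libraries and 55.6%, 53.4% and 53.7% in the si-CyCoNP libraries, without overlap. The sum over the genes other than RET was 175 ± 4.89 FPKM in si-SCR and 182 ± 7.53 in si-CyCoNP, and the libraries of the groups overlapped.

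GFRA2 (ENSG00000168546, chr8:21690398-21812357, minus strand), the co-receptor that prefers neurturin, showed the deepest fall of the 4 tested receptors. It had 14.9, 10.4 and 13.9 FPKM in the si-SCR libraries, from 369, 225 and 385 counts. The si-CyCoNP libraries had 6.28, 3.95 and 4.51 FPKM, from 174, 97 and 108 counts. The lowest si-SCR library lay above the highest si-CyCoNP library. The mean went from 13.1 ± 2.39 to 4.91 ± 1.21 FPKM (SD, n = 3), a level 2.77-fold lower (log2 fold change -1.47, SE 0.149, edgeR quasi-likelihood test, adjusted p = 1.72e-08). The call was made under all 14 alternative settings, with log2 fold changes between -1.70 and -1.25.

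The 95% intervals of the fitted log2 fold changes ran from -1.78 to -1.17 for GFRA2 and from -0.77 to -0.41 for RET and did not overlap. For every 100 FPKM of RET there were 4.30, 3.28 and 5.19 FPKM of GFRA2 in the si-SCR libraries and 2.72, 1.84 and 2.24 in the si-CyCoNP libraries, and the groups did not overlap. GFRA2 nevertheless remained the main GFRA message, with 93.7% ± 3.89 of the summed FPKM of GFRA1, GFRA2 and GFRA3 in si-SCR and 92.7% ± 6.30 in si-CyCoNP (SD, n = 3), values that overlapped between the groups.

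The other GFRA genes were at or near the floor, taken as 3 counts in a library. GFRA3 (ENSG00000146013, chr5:138252380-138274621, minus strand), the co-receptor of artemin, had 7, 9 and 4 counts in si-SCR, against 5, 5 and 0 in si-CyCoNP. This corresponded to 0.815 ± 0.391 and 0.372 ± 0.324 FPKM (SD, n = 3), with overlapping libraries. GFRA3 stayed under the filter, and when all genes with a count were fitted the edgeR adjusted p was 0.375. It passed the filter once, when si-SCR replicate 3 was left out, and its edgeR adjusted p was then 0.138. GFRA1 (ENSG00000151892, chr10:116056925-116276803, minus strand), the co-receptor of GDNF itself, had 0, 1 and 1 counts in si-SCR, against 2, 0 and 1 in si-CyCoNP. Every library of GFRA1 was under the floor of 3 counts, which corresponds to between 0.0646 and 0.0824 FPKM for this gene, and a difference was not detectable at this depth.

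NGFR (ENSG00000064300, chr17:49495293-49515008, plus strand), the neurotrophin receptor without a kinase, was the only one of the 4 tested receptors that rose. It had 1.69, 1.80 and 1.87 FPKM in the si-SCR libraries, from 30, 28 and 37 counts. The si-CyCoNP libraries had 5.33, 5.11 and 3.90 FPKM, from 106, 90 and 67 counts. All si-CyCoNP libraries lay above all si-SCR libraries. The mean went from 1.78 ± 0.0914 to 4.78 ± 0.771 FPKM (SD, n = 3), a level 2.56-fold higher (log2 fold change 1.36, SE 0.205, edgeR quasi-likelihood test, adjusted p = 1.00e-05). NGFR was called higher under all 14 alternative settings, with log2 fold changes between 1.05 and 1.47. The annotation places exons of NGFR-AS1 and of ENSG00000279036 on the opposite strand, and these had 0 counts in all libraries and 1 count in 1 library.

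NGFR is also a marker of Schwann cells and of mesenchymal neuroblastoma cells, so the markers of other cell types are given beside it. Of 8 Schwann and glial markers, SOX10, CDH19 and FOXD3 had no count in any library, and S100B, ERBB3 and GFAP had at most 6 counts in a library. Of the list, 1 gene was tested, and it rose. The summed level of the 8 markers was 1.52 to 3.37 FPKM in si-SCR and 8.78 to 14.7 FPKM in si-CyCoNP. The larger part of this sum in every library, and nearly all of it in si-CyCoNP, came from the 1 tested gene. The sum therefore does not describe the other markers of the list. Of 12 mesenchymal and fibroblast markers, 8 were tested. Of these 8, 4 rose (FN1, COL1A1, COL3A1 and FOSL1), 2 fell (VIM and SNAI2) and 2 did not pass. Over all tested genes, 14.2% rose and 14.2% fell. The 4 that rose averaged 0.697, 0.450, 0.148 and 0.152 FPKM in si-SCR and passed the filter only through si-CyCoNP. In si-SCR, COL3A1 had 4, 7 and 1 counts and FOSL1 had 1, 0 and 3. COL3A1 passed in 11 and FOSL1 in 10 of the 13 alternative settings that tested them. The summed level of the 12 markers overlapped at 105 to 126 FPKM in si-SCR and 104 to 110 in si-CyCoNP. VIM alone averaged 56.3 FPKM in si-SCR and 43.9 in si-CyCoNP, and the 4 markers that rose made up little of the sum. The overlap of the sum therefore does not describe these 4. None of 7 immune and endothelial markers reached the filter. Of the 11 adrenergic markers, 8 were lower, 2 did not pass and only MYCN was higher, where 14.2% of all tested genes fell. The weakest of the 8 lower markers passed in only 7 of 14 alternative settings. The summed level of the 11 was 2687 to 3167 FPKM in si-SCR and 2129 to 2318 in si-CyCoNP. The part of these marker changes in the values of NGFR, GFRA2 and RET was not tested.

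The neurotrophin receptor kinase genes NTRK2 and NTRK3 were hardly detected. NTRK2 (ENSG00000148053, chr9:84668375-85095751, plus strand), which encodes the receptor of brain-derived neurotrophic factor, had 1, 0 and 4 counts in si-SCR, against 3, 1 and 0 in si-CyCoNP. NTRK3 (ENSG00000140538, chr15:87859751-88256791, minus strand), which encodes the receptor of neurotrophin-3, had 2, 2 and 5 counts in si-SCR, against 1, 5 and 5 in si-CyCoNP. Neither gene exceeded 0.0451 FPKM in a library, and the groups overlapped in both. A fit of all genes with a count gave edgeR adjusted p values of 0.887 for NTRK2 and 0.903 for NTRK3. The floor of 3 counts corresponds to 0.0307 to 0.0392 FPKM for NTRK2 and 0.0234 to 0.0298 FPKM for NTRK3, and no fold is given for counts this close to it.

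ALK (ENSG00000171094, chr2:29192774-29921586, minus strand) showed no detectable difference. It had 4.51, 3.53 and 5.21 FPKM in the si-SCR libraries, from 143, 98 and 184 counts. The si-CyCoNP libraries had 5.28, 4.40 and 4.18 FPKM, from 187, 138 and 128 counts. The values of the groups were interleaved. The mean was 4.42 ± 0.845 FPKM in si-SCR and 4.62 ± 0.580 in si-CyCoNP (SD, n = 3), with an edgeR log2 fold change of -0.01 (SE 0.144, adjusted p = 0.979) whose 95% interval ran from -0.30 to 0.29. A change of the size seen for GFRA2 or NGFR lay outside this interval. The sign of the ALK value was not stable and turned in 7 of 14 alternative settings. Exons of CLIP4 lie on the opposite strand, and CLIP4 had 158 to 203 counts in si-SCR and 113 to 189 in si-CyCoNP. Whether the counting separated the strands is not given in the sources used here, so reads of the 2 genes may not be told apart.

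**Figure D2:**
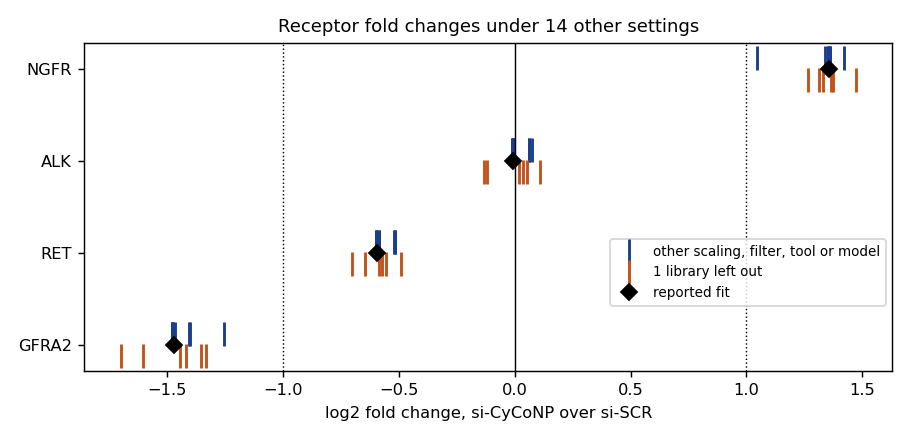
Log2 fold change of the 4 tested receptors (si-CyCoNP over si-SCR) in the reported fit (diamonds) and under the 14 alternative settings (bars), with dotted lines at -1 and 1. NGFR stays above 1, GFRA2 stays below -1, RET stays between -0.70 and -0.49, and ALK lies on both sides of 0.

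The order of the receptors by level changed between the groups. In si-SCR it was RET, GFRA2, ALK, NGFR and GFRA3, each with a range over libraries that did not overlap that of the next, followed by NTRK3, NTRK2 and GFRA1, whose ranges overlapped. In si-CyCoNP, RET again stood apart at the top, and GFRA2, NGFR and ALK followed with means of 4.91, 4.78 and 4.62 FPKM and overlapping ranges. NGFR had thus been at 1.78 FPKM against 13.1 for GFRA2 in si-SCR, and the ranges of these genes overlapped in si-CyCoNP.

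**Figure D3:**
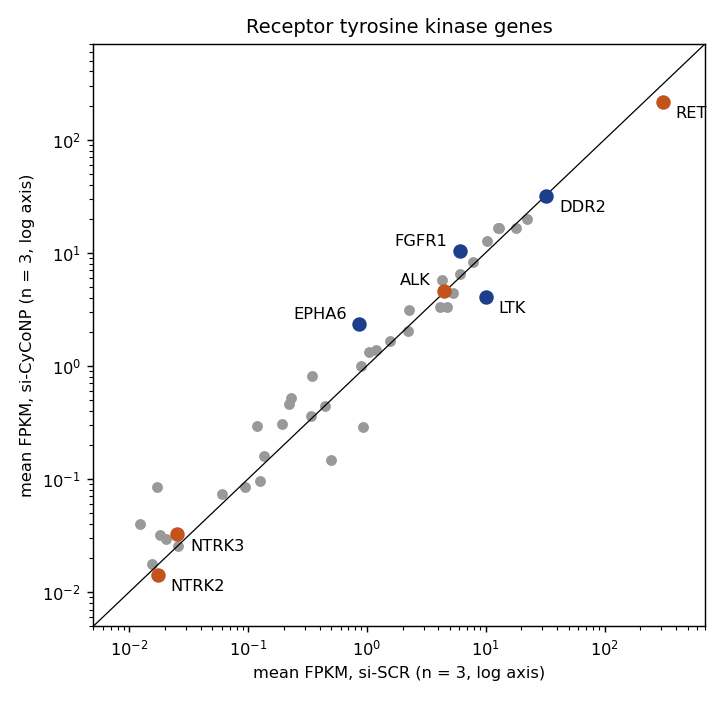
Mean FPKM of 44 receptor tyrosine kinase genes in si-SCR (horizontal) and si-CyCoNP (vertical), on log axes with the line of equal level, with RET, ALK, NTRK2 and NTRK3 in orange, 4 further genes in blue and the others in grey. RET lies at the top, just below the line, NTRK2 and NTRK3 lie at the bottom left, and 10 genes with a mean of 0 in a group are not drawn.

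Ligands that the cells could make for these receptors were sparse apart from GDNF and the ALK-side factors. GDNF, a ligand of the RET complex, had 10.5, 11.8 and 16.4 FPKM in si-SCR and 8.78, 12.3 and 9.12 FPKM in si-CyCoNP. The groups overlapped, and the edgeR log2 fold change of -0.43 (SE 0.141, adjusted p = 0.0225) passed in 7 of 14 alternative settings. It did not pass without si-SCR replicate 3 (edgeR adjusted p = 0.167 at a log2 fold change of -0.24), without si-CyCoNP replicate 1 (edgeR adjusted p = 0.113) or without si-CyCoNP replicate 3 (edgeR adjusted p = 0.0770). PSPN, the gene of persephin, had 11 to 15 counts in si-SCR and 17 to 19 in si-CyCoNP, and missed the threshold (log2 fold change 0.35, edgeR adjusted p = 0.511). NRTN, the gene of neurturin, had 0, 1 and 11 counts in si-SCR, against 0, 2 and 0 in si-CyCoNP, and ARTN, the gene of artemin, had 0 to 4 counts in any library. GDF15, a stress-induced hormone that signals through RET with the co-receptor GFRAL, had 23, 26 and 20 counts in si-SCR, against 8, 11 and 6 in si-CyCoNP. GDF15 was called lower (log2 fold change -1.57, SE 0.392, edgeR adjusted p = 0.00314). Its mean was 2.63 FPKM in si-SCR and 0.911 in si-CyCoNP, so it passed the filter only through si-SCR. GFRAL and GFRA4 themselves had no count.

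Other molecules that bind GDNF outside the RET complex were lower too. NCAM1, a neural adhesion molecule that can take part in GDNF signalling with GFRA1, went from 49.7 ± 9.14 to 24.2 ± 1.47 FPKM (SD, n = 3) and was called lower (log2 fold change -1.11, SE 0.104, edgeR adjusted p = 5.31e-09). SDC3, a syndecan that binds GDNF, fell by 0.65 on the log2 scale (SE 0.161, edgeR adjusted p = 0.0028). Of the 9 ligand and co-receptor genes of the GDNF family listed beside the members, 5 were tested, 4 fell, 0 rose and 1 did not pass, with a median log2 fold change of -0.65. Over all tested genes 14.2% fell, and GDNF, counted among the 4, passed in only 7 of 14 alternative settings. NCAM1 is reported as lower after these siRNAs by the study itself, so its fall was known when the list was written. Of the 5 tested, GDF15 and NCAM1 were called lower, as were 2.98% of all tested genes. GDF15 was among the 5 only through its level in si-SCR, and PSPN only through its level in si-CyCoNP. Without si-SCR replicate 2 the log2 fold change of NCAM1 was -0.9992, just inside the fold used for a call.

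On the neurotrophin side, NTF3 and NTF4 had no count and BDNF had 1 to 7 counts in a library. SORT1, the gene of sortilin, which pairs with p75NTR to bind the precursor forms of neurotrophins, had 22.2, 20.9 and 18.9 FPKM in si-SCR and 11.3, 9.59 and 8.98 FPKM in si-CyCoNP. It was called lower (log2 fold change -1.12, SE 0.099, edgeR adjusted p = 1.54e-09), opposite in direction to NGFR. Of its relatives, SORL1 fell by 0.44 on the log2 scale (edgeR adjusted p = 0.0105, and 0.0786 without si-CyCoNP replicate 1). SORCS1 at -0.28 and SORCS2 at -0.31 did not pass, and SORCS3 had no count. SORCS1 passed once si-SCR replicate 3 was left out (log2 fold change -0.42, edgeR adjusted p = 0.00112). Of 10 listed genes, 5 were tested, 2 fell (14.2% of all tested genes did), 0 rose and 3 did not pass, with a median log2 fold change of -0.34.

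Around ALK, its activating ligands ALKAL1 and ALKAL2 had no count. LTK, its closest relative, had 10.5, 9.06 and 10.4 FPKM in si-SCR and 5.79, 3.57 and 2.90 FPKM in si-CyCoNP, without overlap. LTK was called lower (log2 fold change -1.34, SE 0.183, edgeR adjusted p = 2.29e-06). Its level had been above that of ALK in every si-SCR library. The growth factors pleiotrophin and midkine, both reported as ALK-linked ligands, moved in opposite directions. PTN rose from 63.8 ± 3.23 to 91.3 ± 5.62 FPKM (SD, n = 3, log2 fold change 0.45, edgeR adjusted p = 0.000293) and MDK fell from 121 ± 10.2 to 89.9 ± 18.8 FPKM (SD, n = 3, log2 fold change -0.50, edgeR adjusted p = 0.000954). Their other receptor, PTPRZ1, had 2 counts in 1 library. Of the 6 genes listed here, 3 were tested, 1 rose and 2 fell (14.2% of all tested genes rose and 14.2% fell).

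**Figure D4:**
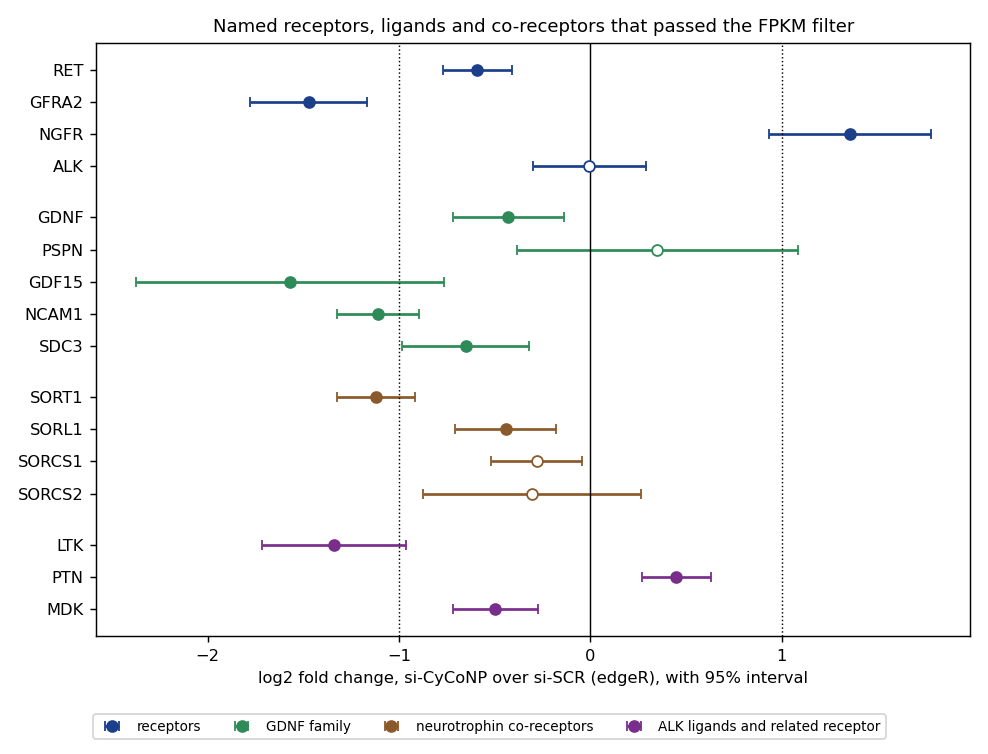
Log2 fold change (si-CyCoNP over si-SCR, edgeR) with its 95% interval for the 4 tested receptors and 12 named ligands, co-receptors and relatives, filled where the adjusted p was under 0.05, with dotted lines at -1 and 1. NGFR lies at 1.36 on the right, GFRA2 at -1.47 and RET at -0.59 on the left, and PTN at 0.45 is the other filled point right of 0.

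Downstream of the receptors, 37 genes of adaptors and proximal signalling proteins were listed. Of these 30 were tested, 9 rose, 5 fell and 16 did not pass, where 14.2% of all tested genes rose and 14.2% fell, and the median log2 fold change was 0.05. The most abundant were SHC1, the adaptor used by both Trk receptors and RET, at 126 and 114 FPKM (log2 fold change -0.21, edgeR adjusted p = 0.133), DOK4, a RET-binding adaptor, at 86.2 and 135 FPKM (0.58, edgeR adjusted p = 2.96e-05), and BEX3, a protein that binds the p75NTR death domain, at 103 and 109 FPKM (0.01, edgeR adjusted p = 0.956). SH2B1, an adaptor of Trk receptors and RET, was the only one of the 30 called (2.28% of all tested genes were called higher), with 2.87, 3.09 and 3.31 FPKM in si-SCR and 6.44, 6.72 and 6.41 FPKM in si-CyCoNP (log2 fold change 1.01, SE 0.129, edgeR adjusted p = 7.45e-07). Its log2 fold change lay between 0.88 and 1.08 in the alternatives, and it was under 1 without si-CyCoNP replicate 2 (0.99) and without si-SCR replicate 1 (0.97). SHC1 passed at a log2 fold change of -0.37 when si-SCR replicate 3 was left out (edgeR adjusted p = 1.46e-05). SHC2, another adaptor of the list, stayed under the filter, with 6, 7 and 12 counts in si-SCR, against 1, 3 and 1 in si-CyCoNP. When all genes with a count were fitted, SHC2 was called lower (log2 fold change -2.32, edgeR adjusted p = 0.0172).

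The list of 48 other receptor tyrosine kinases gave 19 tested genes, of which 4 rose, 2 fell and 13 did not pass (14.2% of all tested genes rose and 14.2% fell), with a median log2 fold change of 0.10. EPHA6, an ephrin receptor, was the only one of the 19 called (2.28% of all tested genes were called higher). It had 19, 14 and 39 counts in si-SCR, against 62, 69 and 62 in si-CyCoNP (log2 fold change 1.33, SE 0.256, edgeR adjusted p = 0.000218). Its mean was 0.864 FPKM in si-SCR and 2.34 in si-CyCoNP, so it passed the filter only through si-CyCoNP. When all genes with a count were fitted, FLT1 (log2 fold change -1.70, edgeR adjusted p = 3.26e-08) and AXL (-1.79, 0.0211) were also called lower. EPHA5 (1.10, 0.0300) and EPHB1 (1.17, 0.0125) were called higher in that fit. It called 431 of 26702 genes higher and 520 lower. FLT1 had 61, 42 and 45 counts in si-SCR, against 26, 8 and 15 in si-CyCoNP. The counts of the others were low, with 15, 7 and 11 against 4, 5 and 1 for AXL. EPHA5 had 13, 8 and 8 against 24, 19 and 24, and EPHB1 had 9, 9 and 13 against 25, 25 and 25. The most abundant of the list, DDR2, IGF1R and EGFR, had adjusted p values of 0.375, 0.0618 and 0.139 in the edgeR fit and log2 fold changes of -0.10, -0.23 and -0.18. Without si-SCR replicate 3, IGF1R (edgeR adjusted p = 0.0032) and EGFR (edgeR adjusted p = 0.0095) passed as lower, and IGF1R also did without si-SCR replicate 2 (edgeR adjusted p = 0.0223).

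The genes with a profile most like that of each called receptor were found by Pearson's r of log2 CPM, the count scaled to the library total, over the 6 libraries. For NGFR these were SREBF1 and ZNF512B, each with r = 0.997, and they had log2 fold changes of 0.34 and 0.50. For GFRA2 they were SHMT1 and PPM1L, each with r = 0.997, and with log2 fold changes of -0.82 and -0.61. These correlations rest on 2 groups of 3 libraries and describe mostly the difference between the groups.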

How the data were processed

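The authors depleted total RNA of ribosomal RNA, made stranded libraries and sequenced them as paired ends. Reads were trimmed with Trimmomatic 0.39 and Cutadapt 3.2, ribosomal reads were removed after Bowtie2 2.4.2, and STAR 2.7.7a aligned the rest to GRCh38. The deposited count table holds raw counts of uniquely mapping fragments per Ensembl gene, which the authors obtained from STAR itself. The deposited FPKM table was made by the authors from these counts, gene length and library total, with no correction for composition. Reads shared with near-identical genes were dropped, and whether strand was used in counting is not given in the sources used here.

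Groups and replicate numbers came from the sample titles. Of the 60676 gene identifiers, 60357 matched a symbol. Genes whose FPKM averaged 1 or more in one of the groups were fitted in edgeR 4.0.16 (R 4.3.3, TMM scaling), and their counts were compared by its quasi-likelihood test, with Benjamini-Hochberg adjustment over all 13966 genes tested. The standard error is the log2 fold change divided by the square root of the F statistic, with intervals from the t distribution of the fit. The biological coefficient of variation was 8.57%. The study's methods name DESeq2 with this filter and these thresholds, and DESeq2 1.42.0 was an alternative, beside its size factors, library totals alone, the default edgeR filter, no filter, a block for the replicate number, fits without each library, and limma 3.58.1 on log2(FPKM + 1) and log2(FPKM + 0.1). The fit was tested on simulated data.

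Text names follow a rule: all 8 receptors, LINC02381, each ligand or co-receptor with a count, and from each list the called genes, the 3 with the highest mean FPKM and, for each called receptor, the 2 genes with the closest profile (prior count 2). Genes without a count, receptor kinases and an adaptor called only without the filter, and markers of cell types were named in addition. Members and lists were chosen with earlier results of these data known. The values of 5 list genes are not reported here, and they enter the list counts only. Coordinates and 3′UTRs were read from a GENCODE annotation and genome of GRCh38, which may differ in release from the annotation behind the counts. Counts are not corrected for PCR duplicates. Same-numbered libraries deviated together with correlations of 0.091, 0.073 and 0.108 across genes, which does not establish pairs.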

Additional observations from a re-analysis of the deposited data

How the results depend on the processing

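The calls of NGFR and GFRA2, the change of RET without a call and the fall of LINC02381 (log2 fold change between -4.16 and -2.90) were found under all 14 alternatives, which gave 1 receptor higher, 1 lower and 3 past the adjusted p in each case. Over all genes, 319 were called higher and 416 lower, but limma on log2(FPKM + 1) gave 207 and 180 and limma on log2(FPKM + 0.1) gave 323 and 292. These fits differ from edgeR in the test, the scaling and the pseudocount together, and the cause was not tested. For the same counts, leaving out 1 library gave 295 to 400 higher and 359 to 507 lower. The replicate block gave 330 and 422 and left each of the 4 tested receptors on its side of the threshold (NGFR 1.34, RET -0.58, GFRA2 -1.48, ALK -0.001), while SHC1 (adjusted p = 0.0221), SORCS1 (0.0191), IGF1R (0.0109) and EGFR (0.0498) passed with the block and not in the fit without it. All 6 libraries lay closest to their own number, as a hint from the data. The sign of ALK turned with library totals alone (0.0596) and with limma, at a pseudocount of 0.1 (0.0739) or 1 (0.0601), and leaving out 1 library gave -0.13 to 0.11; the cause was not tested. Under limma on log2(FPKM + 1), GDF15 (-0.92), NCAM1 (-0.99), SORT1 (-0.99) and EPHA6 (0.86) stayed past the adjusted p but not the fold of 1, and SDC3 (adjusted p = 0.0769), SORL1 (0.244) and MDK (0.0924) did not pass. Counts at or near the floor limit what can be said of NTRK2, NTRK3, GFRA1 and GFRA3.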
